A study of Rattus norvegicus with 6 samples.

Results

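Chemokines are small secreted proteins that draw leukocytes into tissues, and the members examined here are the chemokine ligands and their receptors in rat lung. The rule took every gene named Ccl, Cxcl, Ccr or Cxcr with a number, the atypical receptors named Ackr, and Xcl1, Xcr1, Cx3cl1, Cx3cr1, Ccrl2, Pf4 and Ppbp. It found 55 genes, 34 ligands and 21 receptors, among 21655 gene names, and these 55 genes held 81 of 70376 transcripts. The gene value was FPKM (fragments mapped to a transcript, scaled by its length in kilobases and by the depth of the library), summed over the transcripts that carry the gene's name. Lung tissue came from Sprague-Dawley rats that were 7 weeks old at the start. The 3 pulmonary fibrosis (PF) model samples were from rats given a single intratracheal dose of bleomycin at 7 mg/kg, and the 3 control samples were from rats given saline in its place. Lungs were taken on day 28, so the early inflammatory phase of the bleomycin lesion was not sampled. The labels give 1 number per sample and no other description of the animals, so p-values measure the spread between these 6 samples. Ccr2, Ackr1, Ccl25, Ccl26 and Cxcl5 were not analysed here.

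Chemokines are sorted by the spacing of their first cysteines into CC, CXC, C and CX3C ligands, and most bind receptors coupled to inhibitory G proteins that steer cell movement. Atypical receptors take up chemokines without that signal and so shape their gradients. In the lung, CXC ligands with an ELR motif recruit neutrophils, CC ligands recruit monocytes, macrophages and T cells, and CCL19, CCL21, CXCL12 and CXCL13 place cells in lymphoid tissue and at vessels. Bleomycin is the most used agent for producing lung fibrosis in rodents.

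The comparison asked which of these genes differed between fibrotic and control lung. No member passed an adjusted p below 0.05, and the lowest adjusted p among the 54 members tested was 0.933 (limma, Benjamini-Hochberg over all genes tested). The rule of the study was an unadjusted p of at most 0.05 with at least a 2-fold ratio of group means. It took 1 of the 54 members (1.85%) and 1.52% of all genes tested. That member, Xcl1, was lower in the model samples and rested on 7.72 estimated reads per library on average. Ccl6 is a chemokine of rodent macrophages and other myeloid cells. By summed values it was the one abundant member whose model samples all lay above the control samples. Its values were 60.3 ± 8.60 FPKM in model and 44.2 ± 0.817 FPKM in control samples (SD, n = 3). In annotated transcripts alone the model samples of Ackr3 also all lay above its control samples. Control and model values overlapped for every member tested except 5 (9.26%), and they did not overlap for 10.7% of all genes. A single control library, control 3, held the highest value for 22 of the 54 members tested (40.7%), against 23.1% of all genes.

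Each library held between 3.58e+07 and 4.11e+07 estimated reads, and between 0.0644% and 0.130% of them lay on the 55 genes. Lung markers were abundant in every library, with surfactant protein C (Sftpc) at 2410 to 4146 FPKM and club cell secretoglobin (Scgb1a1) at 4065 to 7693 FPKM. The summed FPKM of 11 fibrosis genes, collagens among them, lay between 478.5 and 556.3 in control and between 555.4 and 686.4 in model samples. None of those 11 genes passed the p and fold rule, and their median log2 fold change was 0.16. The model 3 library stood apart in the sum of 5 cardiac muscle markers, 27.7 FPKM against 6.41 to 11.4 FPKM in the other 5 libraries.

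The promoters of a few inflammatory ligands are shown first, 4 of them for a kB-like motif and 1 for an interferon response motif. RefSeq promoters of the GRCr8 build were found for 41 of the 55 genes, and the 250 bases before the start were searched on both strands. GGGNNTTTCC is a narrow form of the site bound by NF-kB, the main inflammatory transcription factor. It stood in 6 of 41 members (14.6%) and in 1.3% of all 33469 promoters. Other forms of the site were not searched, so a member without this match may still hold one. Those 6 were Cxcl1, Cxcl2, Cxcl6, Ccl20, Ccl9 and Ccr3. GAAANNGAAA, a form of the interferon-stimulated response element, stood in 2 of 41 members, Cxcl10 and Ccl19, and in 3.41% of all promoters. A match is a run of letters and was not tested as a binding site. The sequences below run 5′ to 3′ along the strand of the gene and end at the base before its start. Capitals mark GGGNNTTTCC, or its reverse complement, in the first 4 and GAAANNGAAA in the last. They lie at chr14:17479322-17479571 on the minus strand (Cxcl1), chr14:17467256-17467505 on the minus strand (Cxcl2), chr14:17596418-17596667 on the minus strand (Cxcl6), chr9:91836909-91837158 on the plus strand (Ccl20) and chr14:15988816-15989065 on the plus strand (Cxcl10).
Cxcl1: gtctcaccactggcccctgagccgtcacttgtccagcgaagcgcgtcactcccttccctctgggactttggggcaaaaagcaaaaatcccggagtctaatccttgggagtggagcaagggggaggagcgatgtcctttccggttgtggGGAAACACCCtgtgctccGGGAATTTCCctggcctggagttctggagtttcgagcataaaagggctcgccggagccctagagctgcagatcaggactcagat
Cxcl2: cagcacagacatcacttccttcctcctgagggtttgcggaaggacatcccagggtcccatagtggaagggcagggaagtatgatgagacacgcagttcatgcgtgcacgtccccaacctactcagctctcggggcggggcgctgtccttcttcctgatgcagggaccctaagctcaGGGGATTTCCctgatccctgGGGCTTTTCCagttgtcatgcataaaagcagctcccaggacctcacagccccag
Cxcl6: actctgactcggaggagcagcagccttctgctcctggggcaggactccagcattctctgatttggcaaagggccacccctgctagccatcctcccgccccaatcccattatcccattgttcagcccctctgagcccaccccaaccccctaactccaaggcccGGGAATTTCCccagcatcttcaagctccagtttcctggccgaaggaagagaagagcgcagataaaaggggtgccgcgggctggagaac
Ccl20: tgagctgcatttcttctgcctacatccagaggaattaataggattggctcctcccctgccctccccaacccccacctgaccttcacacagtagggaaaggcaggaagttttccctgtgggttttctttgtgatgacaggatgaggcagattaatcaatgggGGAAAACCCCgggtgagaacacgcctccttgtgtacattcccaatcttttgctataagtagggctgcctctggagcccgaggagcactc
Cxcl10: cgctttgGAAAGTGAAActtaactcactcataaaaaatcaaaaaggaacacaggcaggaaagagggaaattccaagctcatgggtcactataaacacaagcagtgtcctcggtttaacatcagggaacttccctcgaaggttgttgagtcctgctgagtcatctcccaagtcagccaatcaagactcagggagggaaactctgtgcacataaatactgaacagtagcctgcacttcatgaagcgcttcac

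Cxcl1 and Cxcl2 each carried 2 matches, and Cxcl6 and Ccl20 carried 1 each. The matches lay between 45 and 102 bases before the start in all of these 4 genes. The Cxcl10 match lay 234 to 243 bases before the start. These 4 genes were picked from the 6 with the match after their values were seen. All 4 had their highest value in control 3, and they were among 16 of the 33 ligands tested that did. Cxcl1, Cxcl2 and Cxcl6 had their lowest in model 3, as described with their values further on. Ccl2 and Ccl3, which are not among the 6 with the match, were also highest in control 3 and lowest in model 3. The other 2 members with the match differed from this pattern, since Ccl9 was highest in model 2 and Ccr3, which was barely detected, was also highest in model 2.

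The levels of the family covered more than 3 orders of magnitude. The plot of levels by role shows that 11 members reached a mean of 10 FPKM, 22 lay between 1 and 10 FPKM, and 22 lay below 1 FPKM. Of the 11, 9 were ligands and 2 were receptors, Cxcr4 and the atypical receptor Ackr3. Ccl1 was above 0 in 2 libraries alone, at 0.649 FPKM in control 2 and 0.148 FPKM in control 3, and was left out of the test. At the low end 13 members had a mean below 20 estimated reads per library, so a change of a few reads moved their values.

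**Figure D1:**
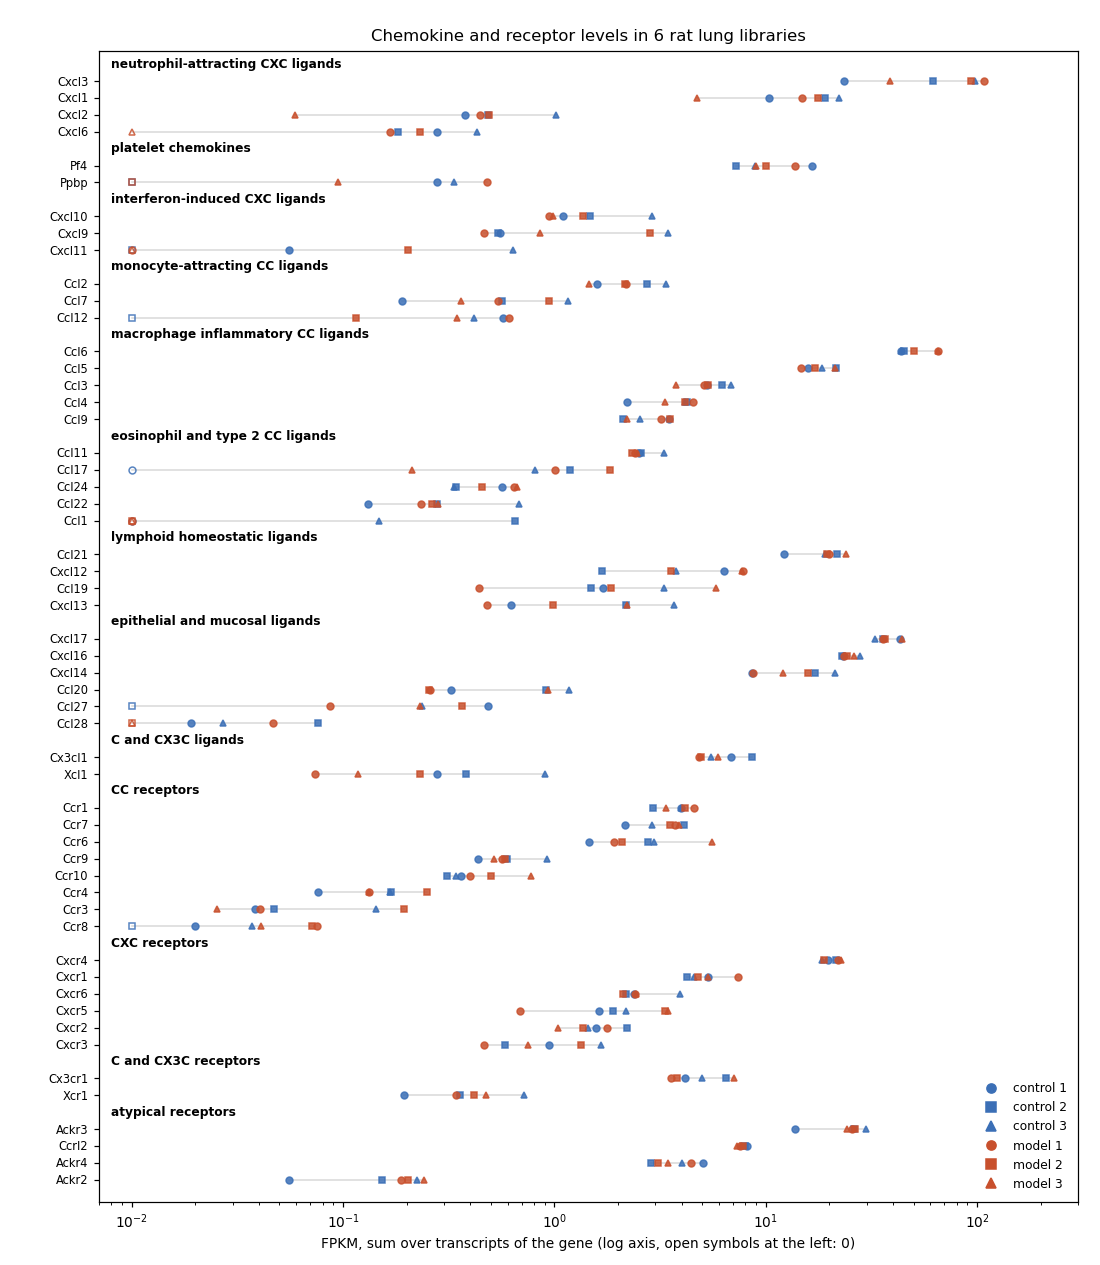
FPKM of 54 of the 55 genes (log axis) in the 6 libraries, grouped by role and ordered by mean; each symbol is 1 library, blue for control and red for model, and open symbols at the left edge stand for 0. Levels run from means of 70.7 FPKM for Cxcl3 down to 0.0282 FPKM for Ccl28, and the blue and red symbols overlap in nearly every row.

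Members varied more among the 6 libraries than genes at large. Among members at a mean of at least 1 FPKM the median coefficient of variation (SD over mean of 6 libraries) was 23.7%, against 14.5% over the 14312 genes at that level. It was above 40% for 9 of those 33 members and for 8.51% of the 14312 genes. The steadiest abundant members were Ccrl2 at 3.69%, Cxcl16 at 7.95% and Cxcr4 at 8.53%, and the least steady at that level was the interferon-induced Cxcl9 at 91.8%. Gene values that mix several transcripts, as for Cxcl3, are among them, and their part in this spread was not tested.

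Across all 19645 genes tested, 1.52% met the p and fold rule, 0.662% with a higher and 0.855% with a lower value in the model samples. Among the 54 members 1 met it, which is 1.85%, and none was higher. An adjusted p below 0.05 was reached by 2 genes of the whole table, 0.0102%, and by no member. At an unadjusted p of at most 0.05 alone the shares were 4.91% of all genes and 2 members (3.70%), Ccl6 and Xcl1 (limma). By a linear model with library size as a covariate, tested by F, no member met the p and fold rule, Xcl1 included. The 3 control and 3 model values did not overlap for 10.7% of all genes and for 5 members (9.26%). For 4.82% of all genes the model values were the higher ones, as they were for Ccl6, Ccr10 and Ccr8. For 5.87% of all genes they were the lower ones, as they were for Ccl11 and Xcl1. These shares of the family lay near those of all genes. The log2 fold change was above 0 for 25 members and below 0 for 29, and its median was -0.01, as it was over all genes. That split turned with the setting, to 30 above and 24 below under TPM, 29 and 25 under upper-quartile scaling, 38 and 16 with library size as a covariate, and 32 and 21 without control 3. Among ligands 12 lay above 0 and 21 below, and among receptors 13 lay above and 8 below. The split of ligands was 16 above and 17 below under both TPM and upper-quartile scaling, so no direction of the ligands as a whole was read from it.

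**Figure D2:**
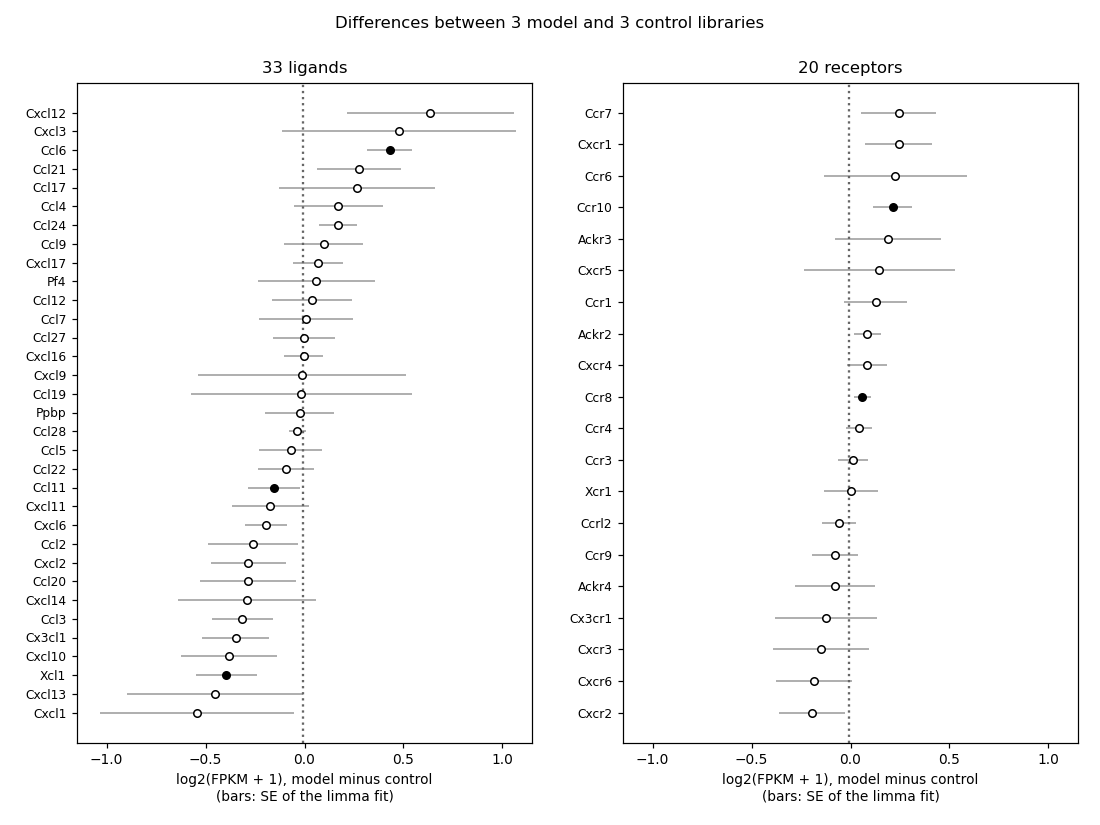
Difference of log2(FPKM + 1), model minus control, with the SE of the limma fit, for 33 ligands and 20 receptors. Filled points mark the 5 members whose groups do not overlap, the dotted line is the median of all genes, and the bars of most members cross it.

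Neutrophil-attracting CXC ligands act through Cxcr1 and Cxcr2. Of 5 tested (Cxcl1, Cxcl2, Cxcl3, Cxcl6 and Ppbp) none was called, 4 of the 5 log2 fold changes were below 0, and the median was -0.20. Cxcl1, the KC chemokine of rodents, stood at 10.4, 19.0 and 22.1 FPKM in control 1, 2 and 3 and at 14.9, 17.6 and 4.73 FPKM in model 1, 2 and 3. The groups overlapped, and model 3 was low on its own, and the fitted log2 fold change was -0.54 ± 0.49 (SE, limma). The Cxcl1 sum also mixed transcripts, and in the annotated one alone control 2 was highest, at 7.18 FPKM, control 1 lowest, at 1.35 FPKM, and model 3 at 2.31 FPKM. Cxcl6 stood at 0.278, 0.182 and 0.429 FPKM in control and at 0.166, 0.232 and 0 FPKM in model samples. Control 3 was again the highest library and model 3 the lowest. Its log2 fold change of -0.20 ± 0.11 (SE) had an unadjusted p of 0.109 (limma). Cxcl2 stood at 0.377, 0.486 and 1.01 FPKM in control and at 0.444, 0.493 and 0.0592 FPKM in model samples. These 3 ligands, whose promoters hold the kB-like match, shared the highest and the lowest library, and the order of the other 4 libraries differed among them. Ccl2 and Ccl3, which are not among the members with the match, had the same highest and lowest library. The 3 CXC ligands are also close relatives in sequence, so reads may have been split among Cxcl1, Cxcl2 and Cxcl3.

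Cxcl3 had the highest summed value of the family, 70.7 FPKM on average over the 6 libraries, but little of it came from the annotated gene. In control samples it stood at 23.5, 62.1 and 97.7 FPKM, and in model samples at 108.3, 93.6 and 38.8 FPKM. The groups overlapped over most of their range, and the log2 fold change was 0.48 ± 0.59 (SE, limma). The name covered 2 annotated transcripts and 5 assembled ones, and the annotated transcripts gave 2.66% of the sum. Alone they stood at 1.64, 1.77 and 3.10 FPKM in control and at 1.41, 2.64 and 0.715 FPKM in model samples, and Cxcl3 was then 26th in the family by mean in place of 1st. The sign of the log2 fold change turned as well, to -0.33 ± 0.33 (SE). In annotated transcripts alone, control 3 was the highest and model 3 the lowest library, as for Cxcl2, Cxcl6 and the Cxcl1 sum. The assembled transcripts lay 5740 bases beyond the 4-exon annotated transcript and did not overlap it. A long annotated transcript of 7 exons overlapped both. Of the 5 assembled transcripts 3 were at 0 in all libraries but control 2.

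**Figure D3:**
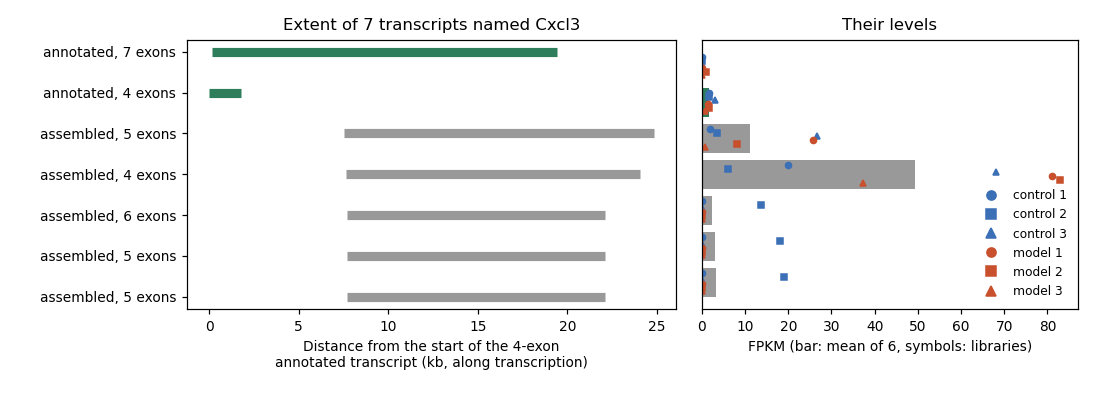
Left, extent of the 7 transcripts that carry the name Cxcl3, in kb from the start of the 4-exon annotated transcript along transcription; right, their FPKM, with bars for the mean of 6 libraries and symbols for single libraries. Annotated transcripts (green) are near 0, and 1 assembled transcript of 4 exons holds most of the sum.

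The receptors of these ligands were present at low to moderate levels. Cxcr1 stood at 5.35, 4.24 and 4.59 FPKM in control and at 7.42, 4.79 and 5.33 FPKM in model samples, which gave a difference of 0.24 ± 0.17 on the log2(FPKM + 1) scale (SE, limma). Model 1 was the highest library, and the other 2 model libraries lay within the control range. Annotated transcripts gave 64.8% of the Cxcr1 sum. In them alone model 1 and model 3, at 5.19 and 3.89 FPKM, lay above the control range of 2.15 to 3.49 FPKM. Model 2, at 2.62 FPKM, lay within it. Cxcr2 lay between 1.45 and 2.20 FPKM in control and between 1.04 and 1.77 FPKM in model samples. The summed FPKM of 5 neutrophil markers lay between 11.0 and 15.6 in control and between 9.93 and 12.9 in model samples. In bulk tissue fewer cells of a type and less RNA per cell cannot be told apart, for these and all later values.

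Platelet chemokines were the products of Pf4 (platelet factor 4) and Ppbp. Pf4 stood at 16.5, 7.26 and 8.91 FPKM in control and at 13.7, 10.0 and 8.97 FPKM in model samples. The group means were 10.9 FPKM in both, and the highest library was control 1. Ppbp was at 0 in 1 library of each group and reached at most 0.479 FPKM. Beside them, the summed FPKM of 5 platelet markers lay between 4.70 and 5.96 over all 6 libraries.

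The interferon-induced ligands Cxcl9, Cxcl10 and Cxcl11 attract activated T cells through Cxcr3. None of the 3 was called, and the 3 log2 fold changes were below 0, with a median of -0.17, although that of Cxcl9 turned above 0 under TPM and upper-quartile scaling. Cxcl10 stood at 1.095, 1.47 and 2.89 FPKM in control and at 0.942, 1.37 and 0.980 FPKM in model samples. Control 3 was 1.97 times the next library, the largest such step of any member at a mean of at least 1 FPKM, and the remaining 5 libraries overlapped. Its log2 fold change of -0.38 ± 0.24 (SE) had an unadjusted p of 0.161 (limma). Cxcl9 stood at 0.554, 0.539 and 3.44 FPKM in control and at 0.465, 2.82 and 0.851 FPKM in model samples. It was thus high in 1 library of each group, control 3 and model 2. Cxcl11 followed it, at 0.635 FPKM in control 3, 0.202 FPKM in model 2 and at most 0.0554 FPKM elsewhere. The receptor Cxcr3 was highest in the same pair of libraries, at 1.65 FPKM in control 3 and 1.34 FPKM in model 2, against 0.462 to 0.939 FPKM in the others.

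The monocyte-attracting ligands Ccl2, Ccl7 and Ccl12 lie side by side on chromosome 10, in the cluster at chr10:69412017-69537882 of the deposited coordinates. None was called. Ccl2, the main monocyte chemoattractant, stood at 1.58, 2.73 and 3.38 FPKM in control and at 2.19, 2.15 and 1.45 FPKM in model samples. The highest library was control 3 and the lowest was model 3, with the other 4 between them, and the log2 fold change was -0.26 ± 0.23 (SE, limma). Ccl7 lay between 0.191 and 1.16 FPKM and Ccl12 between 0 and 0.607 FPKM over the 6 libraries.

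The macrophage inflammatory ligands Ccl3, Ccl4, Ccl5, Ccl6 and Ccl9 lie in a second cluster on chromosome 10, at chr10:70739800-70886355. Of the 5 members 3 had log2 fold changes above 0 and 2 below, none was called, and the median was 0.10 (under TPM 4 lay above 0). Ccl6 stood at 43.6, 45.1 and 43.8 FPKM in control and at 65.3, 50.4 and 65.3 FPKM in model samples. Control libraries were nearly level, and each model library lay above them. Its log2 fold change was 0.43 ± 0.11 (SE), with an unadjusted p of 0.00806, the smallest of the family, and an adjusted p of 0.933 (limma). The log2 ratio of group means, 0.45, was under the 2-fold limit. Ccl6 has 1 annotated transcript and no assembled one, and it rested on 3314 estimated reads per library on average. Macrophage markers were read without Cd68, which stood at 1.304 FPKM in control 3 and 1.21 FPKM in model 2, and was at least 20.7 FPKM elsewhere. The summed FPKM of the other 4 was 47.3, 44.2 and 44.6 in control and 47.3, 44.6 and 48.4 in model samples, so the groups overlapped. Mrc1, a macrophage mannose receptor among them, lay between 10.2 and 14.7 FPKM in control and between 13.4 and 16.6 FPKM in model samples, with an unadjusted p of 0.0795 (limma). The 4 did not move one way. Log2 fold changes were 0.31 for Mrc1 and 0.14 for Siglec1, but -0.09 for Csf1r and -0.02 for Adgre1. The part of these markers in the Ccl6 value was not tested.

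Ccl3 (macrophage inflammatory protein 1-alpha) went the other way in value, at 5.29, 6.18 and 6.85 FPKM in control and 5.09, 5.34 and 3.78 FPKM in model samples. The groups overlapped by a narrow margin, since model 2 lay just above control 1. Its log2 fold change was -0.32 ± 0.15 (SE), with an unadjusted p of 0.0839 (limma). An assembled isoform named Ccl4 lies over Ccl3 on the opposite strand, and whether reads were counted by strand is not given in the sources used here. Ccl4 itself stood between 2.21 and 4.24 FPKM in control and between 3.34 and 4.53 FPKM in model samples. Ccl5 (RANTES), made by T cells and NK cells, stood at 15.9, 21.4 and 18.4 FPKM in control and at 14.7, 17.1 and 21.3 FPKM in model samples. Its group means, 18.6 ± 2.75 and 17.7 ± 3.34 FPKM (SD, n = 3), differed by less than the spread between samples. Ccl9 lay between 2.10 and 3.51 FPKM over all 6 libraries.

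**Figure D4:**
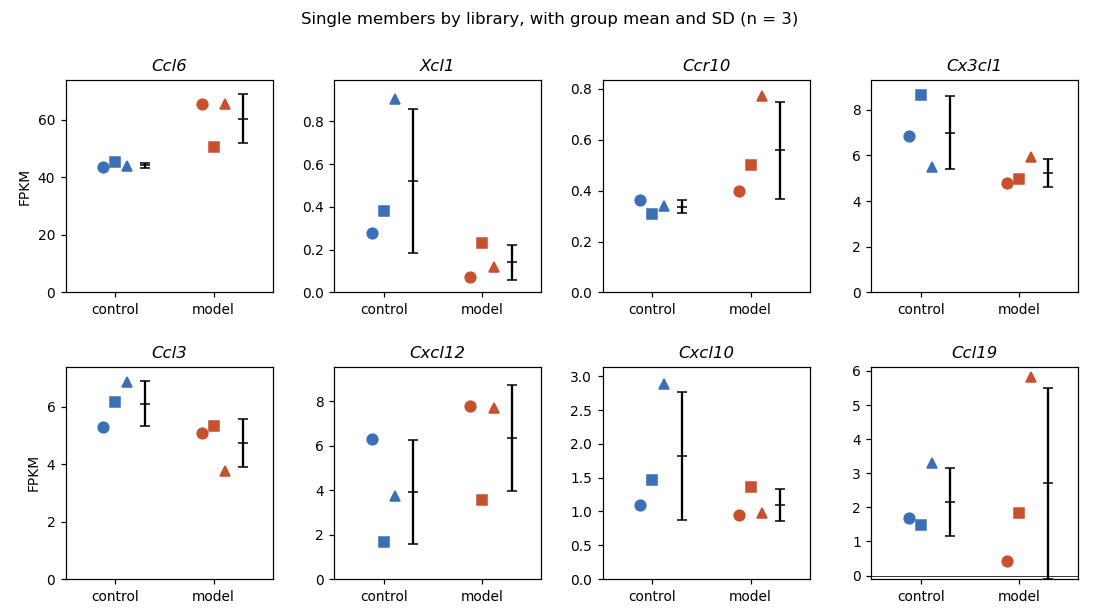
FPKM of 8 members in each library (blue control, red model; circles, squares and triangles for replicate 1, 2 and 3), with the group mean and SD (n = 3) beside them. Groups are apart for Ccl6, Xcl1 and Ccr10 and overlap for Cx3cl1, Ccl3, Cxcl12, Cxcl10 and Ccl19.

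Among the eosinophil and type 2 ligands, 4 were tested and none was called. Ccl11 (eotaxin) stood at 2.51, 2.56 and 3.31 FPKM in control and at 2.40, 2.33 and 2.45 FPKM in model samples. All model values were below all control values, but the gap between the nearest pair was small beside the step to control 3. A log2 fold change of -0.15 ± 0.13 (SE) had an unadjusted p of 0.281 (limma). Ccl24 (eotaxin-2), which macrophages make in type 2 responses, stood at 0.566, 0.342 and 0.335 FPKM in control and at 0.641, 0.456 and 0.668 FPKM in model samples. The groups overlapped, and the log2 fold change was 0.17 ± 0.10 (SE), with an unadjusted p of 0.132. Ccl17 and Ccl22, ligands of Ccr4, lay between 0 and 1.83 FPKM and between 0.131 and 0.678 FPKM. Their receptor Ccr4 lay between 0.0759 and 0.249 FPKM.

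Lymphoid homeostatic ligands varied widely between single libraries. Of the 4 members tested none was called, 2 log2 fold changes were above 0 and 2 below, and the median was 0.13 (under upper-quartile scaling 3 lay above 0). Ccl21, made by lymphatic vessels and lymphoid stroma, stood at 12.2, 21.8 and 19.0 FPKM in control and at 19.8, 19.4 and 24.01 FPKM in model samples. Control 1 was low and the other 5 libraries were close together. Ccl19, the second ligand of Ccr7, stood at 1.69, 1.49 and 3.31 FPKM in control and at 0.437, 1.84 and 5.83 FPKM in model samples. The lowest and the highest library, model 1 and model 3, were both model samples, 13.3 times apart. Its log2 fold change was -0.02 ± 0.56 (SE, limma). Ccr7 itself, which guides dendritic cells and naive T cells, stood at 2.15, 4.08 and 2.91 FPKM in control and at 3.71, 3.53 and 3.88 FPKM in model samples, and it was lowest in control 1 as Ccl21 was.

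Cxcl13, the B cell attractant of lymphoid follicles, lay between 0.623 and 3.67 FPKM in control and between 0.482 and 2.22 FPKM in model samples, highest in control 3 and lowest in model 1. Its receptor Cxcr5 was likewise lowest in model 1, at 0.691 FPKM, against 1.62 to 3.44 FPKM in the others. Of the Cxcr5 sum only 33.6% came from the annotated transcript, and the remainder came from 2 single-exon assembled pieces inside its intron. With the annotated transcript alone Cxcr5 lay between 0.402 and 1.11 FPKM. Summed B cell markers stood at 13.9, 25.7 and 20.8 FPKM in control and at 15.4, 16.4 and 23.0 FPKM in model samples, and summed T cell markers at 12.8, 23.4 and 24.02 FPKM in control and 16.9, 18.3 and 22.2 FPKM in model samples. Both sums were lowest in control 1 and second lowest in model 1, and their part in the values of the lymphoid ligands and receptors was not tested.

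Cxcl12 (stromal cell-derived factor 1) had the largest positive log2 fold change of the family, 0.64 ± 0.42 (SE), with an unadjusted p of 0.180 (limma). It stood at 6.32, 1.68 and 3.74 FPKM in control and at 7.77, 3.57 and 7.69 FPKM in model samples. The groups overlapped, with control 1 and control 3 above model 2. Leaving out 1 library moved the log2 fold change from 0.26, without control 2, to 0.98, without control 1. In control 1 an assembled isoform, at 0 in the other 5 libraries, gave 3.24 of the 6.32 FPKM. Without it, with the annotated transcript alone, Cxcl12 stood at 3.07, 1.68 and 3.74 FPKM in control, 2.83 ± 1.054 FPKM (SD, n = 3), and 6.34 ± 2.40 FPKM in model samples. The log2 fold change was then 0.92 ± 0.34 (SE), with an unadjusted p of 0.0368, a log2 ratio of means of 1.16 and an adjusted p of 0.972. On that value Cxcl12 met the p and fold rule, although model 2 still lay below control 3. The call of Cxcl12 thus rested on how an isoform seen in 1 library was counted.

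The receptors of Cxcl12 were the 2 most abundant receptors. Cxcr4, the signalling receptor, stood at 19.7, 21.4 and 18.5 FPKM in control and at 21.9, 18.8 and 22.7 FPKM in model samples. It was among the steadiest members, and its log2 fold change was 0.08 ± 0.10 (SE, limma). Ackr3, the scavenging receptor for Cxcl12, stood at 13.8, 26.2 and 29.8 FPKM in control and at 25.7, 26.3 and 24.3 FPKM in model samples. Control 1 was low, and the model libraries lay within the control range. In annotated transcripts alone the model libraries, 19.98, 20.2 and 21.02 FPKM, all lay above the control libraries, 9.39, 16.5 and 18.8 FPKM. The log2 fold change was then 0.48 ± 0.25 (SE), with an unadjusted p of 0.0997.

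Epithelial and mucosal ligands held 3 of the most abundant members, Cxcl17, Cxcl16 and Cxcl14. Of 6 members tested none was called, and 5 of the 6 log2 fold changes were below 0, with a median of -0.02, but 3 of the 6 under TPM or upper-quartile scaling. Cxcl17, made by mucosal epithelium, stood at 43.0, 35.7 and 32.9 FPKM in control and at 35.9, 36.8 and 44.0 FPKM in model samples. Cxcl16, a transmembrane ligand of Cxcr6, stood at 23.3, 22.9 and 27.9 FPKM in control and at 23.5, 24.2 and 26.1 FPKM in model samples. For both, the difference between groups was smaller than the spread between samples. Cxcl14 stood at 8.58, 17.2 and 21.3 FPKM in control and at 8.66, 15.8 and 12.1 FPKM in model samples, so that 1 library of each group was low. Cxcr6, the receptor of Cxcl16, which resident T cells carry, stood at 2.38, 2.19 and 3.93 FPKM in control and at 2.40, 2.10 and 2.42 FPKM in model samples. Its gene lies within Fyco1 on the opposite strand. Ccl20, whose promoter is shown, lay between 0.322 and 1.18 FPKM in control and between 0.254 and 0.930 FPKM in model samples. Its receptor Ccr6 stood at 1.46, 2.78 and 2.96 FPKM in control and at 1.91, 2.08 and 5.58 FPKM in model samples, with model 3 at 1.88 times the next library. Of the Ccr6 sum 55.0% came from the annotated transcript. In that transcript alone the step was smaller, with model 3 at 2.82 FPKM and control 3 next at 2.07 FPKM. Ccl27 and Ccl28, the ligands of Ccr10, were at most 0.482 and 0.0765 FPKM.

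The C ligand Xcl1 (lymphotactin), secreted by NK cells and activated CD8 T cells, was the one member that met the p and fold rule. It stood at 0.277, 0.380 and 0.903 FPKM in control and at 0.0738, 0.230 and 0.118 FPKM in model samples. Every model library lay below every control library, and control 3 was 2.38 times the next. The log2 ratio of group means was -1.89, while the log2 fold change of FPKM + 1 was -0.39 ± 0.15 (SE), with an unadjusted p of 0.0411 and an adjusted p of 0.933 (limma). These values rested on an estimated 6.46, 8.12 and 22.1 reads in control and 1.80, 5.09 and 2.72 reads in model libraries. Without model 1, 2 or 3 the unadjusted p was 0.109, 0.0509 and 0.0946, and the call was lost each time. Without control 3 it was kept, with a p of 0.0446, but the log2 ratio of means was -1.22 and the log2 fold change -0.22. Summed NK cell markers stood at 16.99, 23.2 and 25.6 FPKM in control and at 15.8, 19.8 and 20.1 FPKM in model samples, so these groups overlapped, and their part in the Xcl1 value was not tested. Its receptor Xcr1, found on cross-presenting dendritic cells, stood at 0.195, 0.357 and 0.720 FPKM in control and at 0.341, 0.417 and 0.473 FPKM in model samples. Its log2 fold change was 0.00 ± 0.14 (SE).

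Cx3cl1 (fractalkine), a membrane-bound ligand of endothelium and epithelium, stood at 6.85, 8.65 and 5.48 FPKM in control and at 4.81, 4.95 and 5.91 FPKM in model samples. The groups overlapped, with model 3 above control 3. A log2 fold change of -0.35 ± 0.17 (SE) had an unadjusted p of 0.0836 (limma). In the annotated transcript alone, without an assembled piece of 214 bases, the model libraries, 4.43 to 5.02 FPKM, all lay below the control libraries, 5.08 to 6.002 FPKM. The log2 fold change was then -0.20 ± 0.11 (SE). Its receptor Cx3cr1, carried by patrolling monocytes and interstitial macrophages, stood at 4.15, 6.45 and 4.96 FPKM in control and at 3.56, 3.81 and 7.08 FPKM in model samples, with a log2 fold change of -0.12 ± 0.26 (SE).

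Among the CC receptors 9 were tested, none was called, and 7 of the 9 log2 fold changes were above 0. Ccr1, the receptor for Ccl3, Ccl5 and Ccl6, stood at 3.96, 2.91 and 3.97 FPKM in control and at 4.59, 4.14 and 3.37 FPKM in model samples. The model values did not separate from the control values. Ccr10, the receptor for Ccl27 and Ccl28, stood at 0.362, 0.309 and 0.341 FPKM in control and at 0.401, 0.502 and 0.772 FPKM in model samples. All model libraries were higher, and model 3 stood above the others. The log2 fold change was 0.21 ± 0.10 (SE), with an unadjusted p of 0.0710 and a log2 ratio of means of 0.73 (limma). Ccr8, found on regulatory and type 2 helper T cells, was also higher in each model library, at 0.0751, 0.0712 and 0.0409 FPKM against 0.0199, 0 and 0.0370 FPKM in control. It rested on 2.02 estimated reads per library on average, so a difference was not detectable at this depth. Ccr9 lay between 0.437 and 0.925 FPKM and Ccr3, the eotaxin receptor, between 0.0254 and 0.194 FPKM.

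Of the atypical receptors other than Ackr3, Ccrl2 was steady and Ackr2 was low. Ackr4 varied about as much as Ackr3, with coefficients of variation of 21.9% and 22.5%. Ccrl2, which binds chemerin, lay between 7.62 and 8.11 FPKM in control and between 7.34 and 7.78 FPKM in model samples, the smallest coefficient of variation of the family. Ackr4, which takes up Ccl19 and Ccl21, stood at 5.03, 2.85 and 4.001 FPKM in control and at 4.42, 3.10 and 3.45 FPKM in model samples. Only 21.6% of the Ackr4 sum came from its annotated transcript. With Cxcl3, Cxcl1 (29.3%) and Cxcr5 it was 1 of 4 members that took less than 50% of their FPKM from annotated transcripts. In the annotated transcript alone Ackr4 lay between 0.153 and 1.79 FPKM in control and between 0.129 and 0.892 FPKM in model samples. The log2 fold change was then -0.53 ± 0.40 (SE, limma). Ackr2, which takes up inflammatory CC ligands, lay between 0.0553 and 0.243 FPKM.

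The order of libraries within the family was uneven. Control 3 held the highest value for 22 of 54 members tested (40.7%), against 23.1% of all genes tested. Among ligands it was 16 of 33, and among receptors 6 of 21. The 16 ligands were Cxcl1, Cxcl2, Cxcl6, Cxcl9, Cxcl10, Cxcl11, Cxcl13, Cxcl14, Cxcl16, Ccl2, Ccl3, Ccl7, Ccl11, Ccl20, Ccl22 and Xcl1. At a mean of at least 1 FPKM control 3 was highest for 12 of 33 members (36.4%), against 23.7% of all genes at that level. Control 1 held the lowest value for 15 of 54 members (27.8%), against 13.1% of all genes. Both are control libraries. The lowest place of control 1 did not by itself mean a wide control spread. Ccl6 was among those 15 members, at 44.2 ± 0.817 FPKM in control samples (SD, n = 3). Without control 3 the median log2 fold change of the family was 0.05, and without control 1 it was -0.06. Many members are neighbours on a chromosome and are not independent measurements, since 35 of the 55 lie in 9 clusters with gaps of at most 500 kb.

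**Figure D5:**
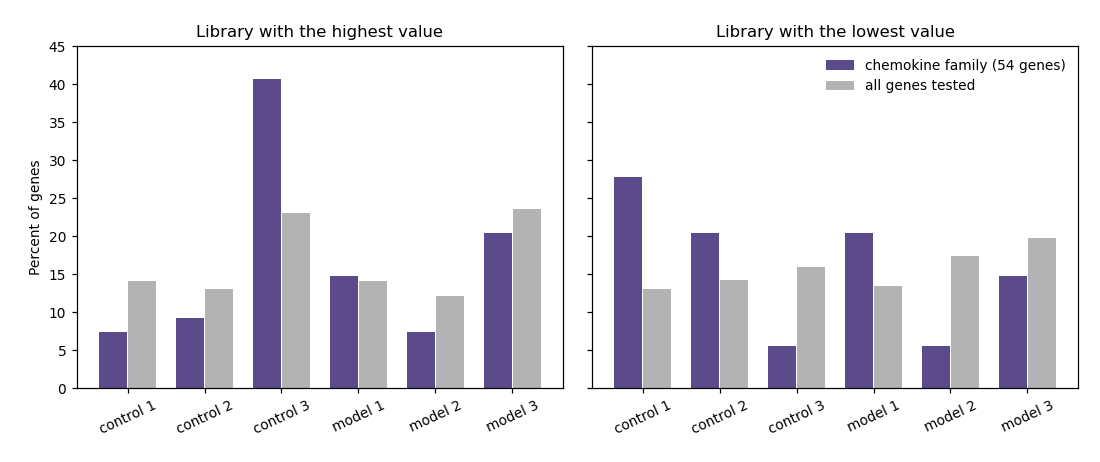
Percent of genes for which each library holds the highest (left) or lowest (right) value, for the 54 members tested and for all genes tested. Control 3 is highest for 40.7% of members against 23.1% of all genes, and control 1 is lowest for 27.8% against 13.1%.

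Genes around the chemokines were described by lists of pathway members. Of 36 signal transducers of chemokine receptors listed, 34 were tested and none was called, with 19 log2 fold changes above 0, 15 below and a median of 0.01. Groups did not overlap for 3 of the 34, and for 10.7% of all genes tested. These 3 were chosen for mention after their values were seen. Gnb2, a G protein beta subunit, lay between 45.5 and 46.0 FPKM in control and between 50.8 and 54.5 FPKM in model samples. Arrb2, which ends receptor signalling, lay between 6.52 and 7.10 FPKM in control and between 7.69 and 9.67 FPKM in model samples. Gnai3, an inhibitory G protein alpha subunit, lay between 28.3 and 29.1 FPKM in control and between 24.1 and 27.98 FPKM in model samples. None of the 3 changed by 2-fold, and each adjusted p was 0.933 (limma). Of 17 inducers and transcription factors of chemokine genes tested, and of 12 genes that cleave or present chemokines, none was called. The median log2 fold changes were -0.04 and 0.07.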

How the data were processed

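Total RNA of 6 lungs (3 control, 3 model) was depleted of ribosomal RNA and sequenced as stranded libraries. Per its methods the authors used Cutadapt for trimming, then Bowtie2 and Tophat2 for mapping (the submitters' processing notes name HISAT2, StringTie and TopHat), and StringTie for assembly. They deposited transcript FPKM, normalized for length and depth, and per-base coverage, a signal not normalized for depth. For circular RNAs they deposited counts of back-splice reads and a normalized signal. The build is not given in the sources used here. All 24 sample columns were assigned from their names.

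FPKM was summed per gene name, so a sum depends on which assembled transcripts carry that name. Genes above 0 in at least 3 of 6 samples were tested with limma 3.58.1 (trend, two-sided) in R 4.3.3 on log2(FPKM + 1), which understates changes of low genes. On the log2(FPKM + 1) scale a log2 change of 2 was simulated in 200 of 19616 genes, all at a mean FPKM of at least 1. It was found in 189 of them (adjusted p below 0.05). Lower genes and smaller changes were not simulated, so this does not speak for them. Genes with p of 0.05 or less and group means at least 2-fold apart were called. This is the study's rule, with limma in place of Ballgown. Adjusted p was counted beside it. Read numbers were approximated from coverage, transcript length and the read length of 150 bases.

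Genes named with all values were those called, the 5 smallest p in each direction, the 12 highest means, the highest ligand and 3 highest receptors of each role, and the 3 largest steps from highest to second library. Values for other members were added after they were seen. The members and lists were chosen with earlier results of these data known. Alternatives were other pseudocounts, filters, gene sums, scalings and tests, fits that left out 1 sample at a time, and a replicate block. One member was kept in all counts, but its own values are not reported here.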

Additional observations from a re-analysis of the deposited data

Results flagged for a closer look

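One circular RNA with a chemokine host gene stood in the table of 5216 circular RNAs, an intronic circle from Cxcl17 at chr1:82270002-82270769 of the deposited coordinates. It had 2 back-splice reads in model 3 and 0 in the other 5 libraries, and was noted because its reads lay in a model library while the control libraries had none. The libraries held 2037 to 2964 back-splice reads each, and 2 reads are below the 3 that a count of 0 allows, so no difference was detectable at this depth. Intervals of this kind cover counting error only.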

How the results depend on the processing

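The count of 298 calls over all genes, 43.6% of them higher, was 84 with a filter at a mean FPKM of 1, 519 with annotated transcripts alone and 153 by the F test with library size, and 309 to 396 without 1 library. Scaling to TPM moved the median of all genes to 0.05 and the share of higher calls to 58.2%. Calls by adjusted p, 2 over all genes, were 7 with annotated transcripts alone, 0 by the F test, 0 with the replicate block and 1 to 4 without 1 library, and no alternative gave a member. Xcl1 was not tested under the filter at a mean FPKM of 1 and lost its call with annotated transcripts alone, with limma without trend, by the F test and without each model library. The count of members called was then 0, except with annotated transcripts alone, where Cxcl12 was called instead, and it was 0 to 1 without 1 library. Members whose groups do not overlap numbered 2 under the filter at a mean FPKM of 1 and 8 to 15 without 1 library, where 18.4% to 22.9% of all genes do not overlap. The pathway and marker lists held 1 call with the sum weighted by length (Il1a) and 1 with annotated transcripts alone (Stat6), and 0 to 2 without 1 library. The median of the family was 0.10 by the F test and lay between -0.06 and 0.05 without 1 library. The log2 fold change of Cxcl10 turned to 0.0069 by the F test. For 10 members, the 5 with the smallest p in each direction, 157 of 165 values kept direction and call, and the exceptions were the 6 lost calls of Xcl1, the call gained by Cxcl12 and the sign of Cxcl10. Under TPM the signs of Ccl27, Ccl5, Cxcl16, Cxcl9 and Ccrl2 turned, and under upper-quartile scaling those of Ccl19, Ccl27, Cxcl16 and Cxcl9.

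The deviations of same-numbered samples correlated at 0.06, 0.03 and -0.08 across genes. Those of differently numbered samples correlated between -0.13 and 0.096. Whether the numbers pair the samples cannot be told from 3 samples per group. With the replicate block 312 genes were called, Xcl1 among them, and no other member. In that fit the log2 fold change of Cxcl12 was 0.64 ± 0.17 (SE), with an unadjusted p of 0.0175 and an adjusted p of 0.924 (limma). Its log2 ratio of means, 0.70, was under the 2-fold limit. Depth limits the 13 members with a mean under 20 estimated reads, Xcl1 among them.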

Other observations

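Stat6, the transcription factor that carries the signal of interleukin 4 and interleukin 13 to type 2 chemokine genes, was chosen for mention after its values were seen. Its summed level was 21.2, 24.7 and 21.99 FPKM in control and 15.3, 13.9 and 15.4 FPKM in model samples, which gave a log2 fold change of -0.58 ± 0.09 (SE) with an adjusted p of 0.922 (limma). The annotated transcript of 21 exons stood at 17.9, 21.1 and 19.5 FPKM in control and at 2.48, 2.63 and 2.72 FPKM in model samples. An assembled transcript of 20 exons stood at 0.989, 0.897 and 0.772 FPKM in control and at 8.59, 6.91 and 6.65 FPKM in model samples. Every model library thus had less of the first and more of the second. In annotated transcripts alone Stat6 had a log2 fold change of -2.17 ± 0.09 (SE), with an adjusted p of 0.00351 (limma). Its adjusted p thus rested on which transcripts were summed. The type 2 ligands Ccl11, Ccl17, Ccl22 and Ccl24 did not move one way beside it, with log2 fold changes of -0.15, 0.27, -0.09 and 0.17.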
